A study of Mus musculus with 3 samples.

Results

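The 9 interferon-stimulated genes described here were followed through RNA sequencing of the mandibular condyle in wild-type mice and in mice lacking 1 or both copies of Dspp, the gene for dentin sialophosphoprotein. The members, Isg15, Ifit1, Ifit2, Ifit3, Irf7, Rsad2, Usp18, Oasl2 and Bst2, were taken by symbol from the deposited table, and all 9 were found among its 26970 genes. An average of 1 FPKM or more across libraries was reached by 8 of them and by 13026 genes in all, and Usp18 (mean 0.868 FPKM) fell under that filter. There was 1 library for each genotype at 4 months of age: wild type (WT, labelled +/+), Dspp+/- and Dspp-/-, on a C57BL/6 background with a global knockout allele. Condyles were taken with cartilage and subchondral bone joined, and tissue of 3 animals went into the WT library and likewise into the Dspp+/- library, while the number of animals behind Dspp-/- was not given in the sources used here. Without replicates no test between genotypes was possible, so each difference below lies between single libraries and has no replicate check, and no p-value is given.

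Interferons are secreted when cells sense foreign or misplaced nucleic acid. Type I interferons bind a receptor whose kinases, JAK1 and TYK2, set off the assembly of ISGF3, a factor that contains IRF9 and binds the interferon-stimulated response element (ISRE) in front of its target genes. The products of these targets block several steps of viral growth or tune the signal itself, and marrow cells keep many of them at a low level without infection. In bone, interferon signalling is known to restrain osteoclast formation.

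Since the members are defined by a shared response, their promoters are shown first. RefSeq start sites on GRCm38.p6 were held for 8 of the 9 members, with 2 start sites for Ifit2; Usp18 had no entry. The core of the ISRE was searched as a pair of GAAA blocks with any 2 bases between them, on both strands, in the window from 250 bases before to 50 bases after each start site. It was present in 5 of the 8 members with a window, Isg15, Ifit1, Ifit3, Rsad2 and Bst2, and in 3.99% of the 27025 genes with a window. The 250 bases upstream of the start site are printed for these 5 members, 5′ to 3′ on the strand of the gene, with the bases of each match in capitals.
Rsad2, chr12:26456453-26456702, minus strand: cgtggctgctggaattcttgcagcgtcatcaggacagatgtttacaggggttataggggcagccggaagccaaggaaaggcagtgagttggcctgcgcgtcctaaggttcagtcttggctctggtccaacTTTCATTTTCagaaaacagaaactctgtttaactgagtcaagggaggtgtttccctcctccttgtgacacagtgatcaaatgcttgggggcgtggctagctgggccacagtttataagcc
Ifit1, chr19:34640639-34640888, plus strand: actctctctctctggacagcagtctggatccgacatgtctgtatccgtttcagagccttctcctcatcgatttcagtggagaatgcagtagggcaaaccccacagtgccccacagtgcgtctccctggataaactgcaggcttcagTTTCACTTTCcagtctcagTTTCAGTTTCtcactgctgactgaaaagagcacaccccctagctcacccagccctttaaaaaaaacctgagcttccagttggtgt
Isg15, chr4:156200819-156201068, minus strand: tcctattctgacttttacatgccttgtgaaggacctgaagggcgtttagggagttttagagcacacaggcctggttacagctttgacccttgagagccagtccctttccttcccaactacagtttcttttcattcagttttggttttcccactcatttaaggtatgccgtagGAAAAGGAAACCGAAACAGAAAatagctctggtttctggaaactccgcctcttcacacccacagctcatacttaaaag
Ifit3, chr19:34583279-34583528, plus strand: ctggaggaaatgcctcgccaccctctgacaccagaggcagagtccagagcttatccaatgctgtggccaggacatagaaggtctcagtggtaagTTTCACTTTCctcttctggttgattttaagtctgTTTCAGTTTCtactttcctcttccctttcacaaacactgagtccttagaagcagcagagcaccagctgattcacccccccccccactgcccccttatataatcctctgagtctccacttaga
Bst2, chr8:71537473-71537722, minus strand: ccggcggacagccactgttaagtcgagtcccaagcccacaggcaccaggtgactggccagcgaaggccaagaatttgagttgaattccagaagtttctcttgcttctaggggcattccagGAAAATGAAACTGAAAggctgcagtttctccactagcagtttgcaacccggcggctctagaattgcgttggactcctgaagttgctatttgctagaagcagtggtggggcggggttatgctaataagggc
Isg15 held 3 matches that overlap each other, from base 78 to base 57 before the start site. Ifit1 and Ifit3, which are neighbours on chromosome 19, each held 2 separate matches on the opposite strand, from base 104 to 95 and from 85 to 76 in Ifit1 and from base 156 to 147 and from 122 to 113 in Ifit3. The matched letters were the same in both genes, GAAAGTGAAA and GAAACTGAAA. In Rsad2 the match, GAAAATGAAA on the opposite strand, ran from base 120 to 111, and in Bst2 there were 2 overlapping matches from base 130 to 115. No match lay in the windows of Ifit2, Irf7 or Oasl2. The GAS element, a motif of interferon-gamma responses, searched as TTC and GAA with any 3 bases between them, was found in 2 members, Ifit2 and Bst2, and in 9.55% of the genes with a window; in Bst2 it overlapped an ISRE match. These are matches of letters in a short window and were not tested for binding.

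The libraries held 20241577 (WT), 23613620 (Dspp+/-) and 22253158 (Dspp-/-) fragments, recovered from the values as described under the processing. The mitochondrial share of the summed FPKM was 25.0% in WT against 36.9% in Dspp+/- and 37.3% in Dspp-/-. Xist, the RNA of the inactive X chromosome in female cells, had 2 fragments in WT against 12084 in Dspp+/- and 10563 in Dspp-/-, so the makeup of the pools by sex moved together with genotype, and its part in the results was not tested. Dspp was not analysed here, and no other value checked the genotype labels.

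All 9 members had a higher FPKM in both mutant libraries than in WT. So did 56.3% of the 13026 genes compared in Dspp+/- and 50.7% in Dspp-/-, each library taken alone. Rsad2 and Ifit1 stood highest, at 2.62-fold and 2.75-fold in Dspp+/- and 2.80-fold and 2.75-fold in Dspp-/-. Irf7, Ifit2 and Bst2 were the lowest, between 1.22-fold and 1.305-fold in Dspp+/- and between 1.05-fold and 1.15-fold in Dspp-/-. Summed over the members, the level was 31.2 FPKM in WT against 49.4 in Dspp+/- and 45.8 in Dspp-/-, and Rsad2 made up 36.5% of the gain in Dspp+/- and 50.5% in Dspp-/-.

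**Figure D1:**
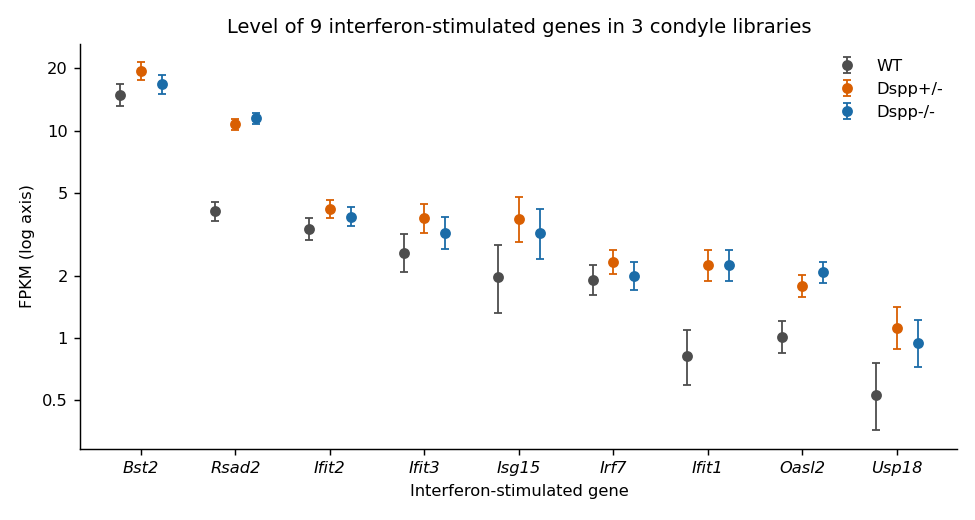
Level of each of the 9 interferon-stimulated genes in FPKM (log axis) in the WT, Dspp+/- and Dspp-/- libraries, in order of mean level. Points are the values of single libraries and bars are 95% exact Poisson intervals from the recovered fragments, which cover counting error only. Bst2 lies highest in every library (14.9 to 19.4 FPKM), and Rsad2 shows the widest gap in FPKM between WT (4.10) and the mutant libraries (10.8 and 11.5).

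Rsad2 encodes viperin, a radical SAM enzyme that makes a chain-terminating nucleotide. It was measured in WT at 4.10 FPKM from 360 fragments, in Dspp+/- at 10.8 FPKM from 1102 fragments and in Dspp-/- at 11.5 FPKM from 1109 fragments. The mutant libraries lay close to each other and apart from WT. Against WT the fold was 2.62 in Dspp+/- (95% Clopper-Pearson interval from the fragments 2.33 to 2.96) and 2.80 in Dspp-/- (2.49 to 3.16). Between the mutant libraries the fold of Dspp+/- against Dspp-/- was 0.936, and its interval of 0.861 to 1.02 includes 1. These intervals, and all given below, cover counting error only and not the spread between mice. Rsad2 lies on chromosome 12 from 26492745 to 26506451 in the deposited table, on the minus strand, 12751 bases from Cmpk2. Cmpk2, named for its place beside Rsad2 after its values were seen, encodes a nucleotide kinase that supplies the substrate of viperin and is transcribed the other way. It had 2.12 FPKM in WT against 4.96 in Dspp+/- and 4.24 in Dspp-/-. The FPKM of Rsad2 was 1.93 times that of Cmpk2 in WT (1.61 to 2.32), 2.17 times in Dspp+/- (1.95 to 2.42) and 2.71 times in Dspp-/- (2.41 to 3.05), a ratio within a library that no scaling between libraries can change.

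The 3 IFIT members encode proteins with tetratricopeptide repeats that bind foreign RNA, and in this annotation they share a stretch of 99.3 kb on chromosome 19. Ifit2 (34528094 to 34553819) had 3.36 FPKM in WT against 4.21 in Dspp+/- and 3.86 in Dspp-/-, on 267, 390 and 337 fragments. Ifit3 (34560931 to 34566131) had 2.58 FPKM in WT against 3.79 in Dspp+/- and 3.22 in Dspp-/-, on 91, 156 and 125 fragments. Ifit1 (34618271 to 34627409) had 0.818 FPKM in WT against 2.25 in Dspp+/- and 2.25 in Dspp-/-, on 44, 141 and 133 fragments. In WT the 3 genes were ordered Ifit2, Ifit3, Ifit1, and Ifit1 came nearer to the others in both mutant libraries. The fold of Ifit1 against WT was 2.75 in each mutant library, with intervals of 1.95 to 3.95 and 1.94 to 3.96. For Ifit2 it was 1.25 in Dspp+/- (1.07 to 1.47) and 1.15 in Dspp-/- (0.975 to 1.35), the latter interval including 1. Ifit3 had 1.47 in Dspp+/- (1.13 to 1.92) and 1.25 in Dspp-/- (0.946 to 1.66). Within each library, the FPKM of Ifit1 was 0.244 of that of Ifit2 in WT (0.173 to 0.336), 0.535 in Dspp+/- (0.438 to 0.650) and 0.584 in Dspp-/- (0.474 to 0.715). The WT interval of this ratio lies below both mutant intervals. By contrast the ratio of Ifit3 to Ifit2 was 0.767 in WT against 0.900 in Dspp+/- and 0.835 in Dspp-/-, with intervals that overlap. Ifit3 shares 31.7% of its 100-base transcript sequences with Ifit3b, so its fragments could have been split between the 2 genes and its values are uncertain. For Ifit1 the shared portion was 3.29%, with Ifit1bl2.

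Isg15 encodes a ubiquitin-like protein that is joined to other proteins, and Usp18 the protease that takes it off and that also blocks the type I receptor. Isg15 (chromosome 4, 156283912 to 156285253) had 1.97 FPKM in WT against 3.73 in Dspp+/- and 3.20 in Dspp-/-. Its short transcript left few fragments, 30 in WT against 67 in Dspp+/- and 54 in Dspp-/-, and the intervals are accordingly wide, 1.91-fold in Dspp+/- (1.23 to 3.05) and 1.64-fold in Dspp-/- (1.03 to 2.65). Usp18 (chromosome 6, 121222865 to 121247876) was the lowest member in every library, with 0.531 FPKM in WT against 1.12 in Dspp+/- and 0.950 in Dspp-/-. The fold was 2.11 in Dspp+/- (1.37 to 3.35) and 1.79 in Dspp-/- (1.13 to 2.88), from 30, 74 and 59 fragments. The modifier and its protease kept a similar ratio, with Isg15 at 3.70 times the FPKM of Usp18 in WT (2.15 to 6.34), 3.33 times in Dspp+/- (2.36 to 4.71) and 3.36 times in Dspp-/- (2.29 to 4.97), and the 3 intervals overlap. In Usp18, 4.44% of the exon length overlaps Gm44148 on the other strand, and the strand used in counting was not given in the sources used here.

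Oasl2 encodes a relative of the oligoadenylate synthetases, enzymes that activate RNase L. Its values were 1.02 FPKM in WT against 1.78 in Dspp+/- and 2.07 in Dspp-/-, on 131, 268 and 294 fragments (chromosome 5, 115034997 to 115050295). It was 1.75-fold higher in Dspp+/- (1.42 to 2.18) and 2.04-fold higher in Dspp-/- (1.66 to 2.53). Bst2, on chromosome 8 from 71986899 to 71990100, encodes tetherin, which holds budding virus at the cell surface and is also made by plasma cells and plasmacytoid dendritic cells. It was the most abundant member in each library, with 14.9 FPKM in WT against 19.4 in Dspp+/- and 16.8 in Dspp-/-, on 272, 414 and 337 fragments. The fold of Bst2 was 1.305 in Dspp+/- (1.12 to 1.53) and 1.13 in Dspp-/- (0.958 to 1.33). Irf7, on chromosome 7 from 140842619 to 140846394, encodes the transcription factor that amplifies type I interferon production. With 1.91 FPKM in WT against 2.33 in Dspp+/- and 1.999 in Dspp-/-, on 146, 208 and 168 fragments, it differed least. Its fold was 1.22 in Dspp+/- (0.984 to 1.52) and 1.05 in Dspp-/- (0.833 to 1.32), and both intervals include 1. The libraries were also scaled to equal summed FPKM outside hemoglobin, immunoglobulin and skeletal muscle genes, with mitochondrial genes kept. This scaling turned the log2 ratio of Irf7 in Dspp-/- from 0.04 to -0.07. That scaling left Bst2 at 0.0020 and Ifit2 at 0.022 in Dspp-/-, near no difference. The members other than Irf7 stayed above WT in both mutant libraries under every scaling tried.

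**Figure D2:**
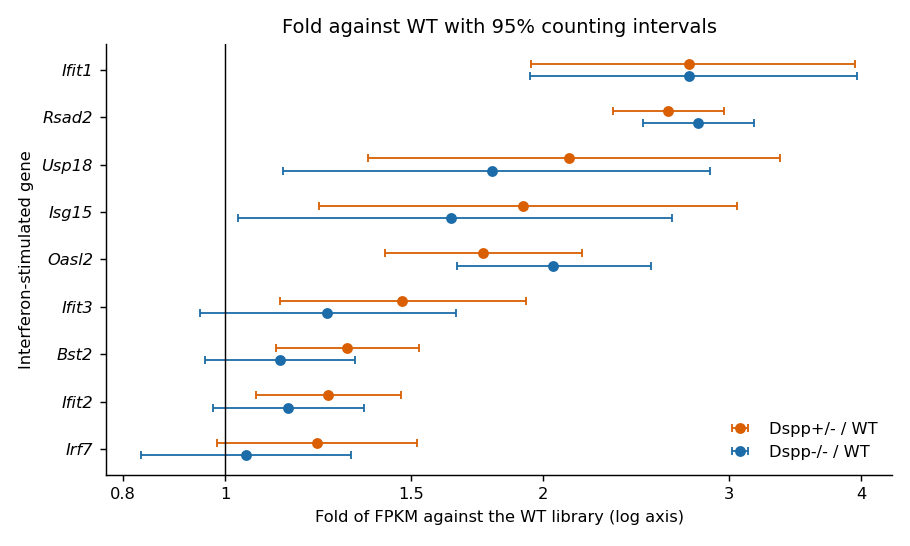
Fold of FPKM in Dspp+/- and Dspp-/- against the WT library (log axis) for each member, with 95% Clopper-Pearson intervals from the recovered fragments, and a line at a fold of 1. The intervals of Ifit1, Rsad2, Usp18, Isg15 and Oasl2 lie above 1 in both mutant libraries, and those of Irf7 include 1 in both. Both folds of a gene use the same WT library.

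Genes were then compared as log2 ratios of FPKM + 1, a scale that understates the change of low genes, and called where the ratio passed 2-fold. In Dspp+/- against WT, 1 of the 8 members compared, Rsad2, was at least 2-fold higher, beside 4.88% of all 13026 genes compared. In Dspp-/- it was again only Rsad2, beside 4.05% of the genes. No member was at least 2-fold lower, beside 2.86% of the genes in Dspp+/- and 1.37% in Dspp-/-. The log2 ratio of Rsad2 was 1.21 in Dspp+/- and 1.29 in Dspp-/-, and 419 and 313 of the genes had a larger ratio. The call rests on the pseudocount: with 5 FPKM in place of 1 no member passed 2-fold, and with 0.1 FPKM both Rsad2 and Ifit1 did. Of all genes compared, 1.42% in Dspp+/- and 1.04% in Dspp-/- were 2-fold higher with 5 FPKM. With 0.1 FPKM these shares were 7.45% and 6.42%. The median log2 ratio of the 8 members was 0.44 in Dspp+/- and 0.37 in Dspp-/-, against 0.058 and 0.0070 over all genes compared. With Usp18 included, the medians of the 9 members were 0.46 and 0.35. Ifit1 passed the filter at 1 FPKM on the strength of its mutant values, since its WT level was 0.818 FPKM.

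The counting interval of the fold gives another reading of the same values. It lay above 1 for 7 of the 8 members in Dspp+/- and for 4 of the 8 in Dspp-/-, Rsad2, Ifit1, Isg15 and Oasl2. The corresponding share was 39.4% of the genes compared in Dspp+/- and 34.1% in Dspp-/-. Usp18 would add 1 to each count. No member had an interval below 1, beside 28.4% of the genes in Dspp+/- and 33.6% in Dspp-/-. The comparisons share the WT library, so a low WT value would raise both folds of a gene together.

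The mutant libraries differed little from each other in these genes. Between Dspp+/- and Dspp-/-, no member passed 2-fold in either direction, beside 0.798% of the genes higher and 0.852% lower in Dspp+/-. The interval of the fold included 1 for every member but Bst2, which was 1.16-fold higher in Dspp+/- (1.0002 to 1.34), beside 34.6% of the genes with an interval above 1. Of the 9 members, Rsad2, Oasl2 and Ifit1 had the lower value in Dspp+/-, at 0.936, 0.859 and 0.999 of Dspp-/-. The other members were 1.09-fold to 1.18-fold higher in Dspp+/-.

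Ordered by FPKM, the members began with Bst2, Rsad2, Ifit2, Ifit3 and Isg15 in all 3 libraries. In WT only Bst2 stood clear of its next neighbour within this top part, as the exact Poisson intervals of Rsad2 (3.69 to 4.55 FPKM) and Ifit2 (2.97 to 3.79 FPKM) overlap. In both mutant libraries Rsad2 separated from Ifit2, with 10.1 to 11.4 FPKM against 3.80 to 4.64 FPKM in Dspp+/- and 10.8 to 12.2 FPKM against 3.46 to 4.29 FPKM in Dspp-/-. Ifit2, Ifit3 and Isg15 followed each other with overlapping intervals in each library. The lower end of the order changed: Irf7 was sixth in WT and eighth in Dspp-/-, where Ifit1 and Oasl2 had moved past it with intervals that overlap its own.

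The rest of the pathway was read from lists written by role, starting with the ligands. Of 21 interferon genes listed, 3 had values, and none exceeded the floor of 3 fragments in any library. Ifng had 3 fragments in Dspp+/- and 0 in the others, Ifnk 1 fragment in Dspp+/- and Ifna14 1 fragment in Dspp-/-. The other 18 ligand genes were not analysed here. A count of 0 allows up to 3 fragments, which in a transcript of 1 kb is 0.148 FPKM in WT against 0.127 in Dspp+/- and 0.135 in Dspp-/-, and more in a shorter one.

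The receptors were expressed at similar levels in all libraries. Over the 6 subunits the median log2 ratio was 0.09 in Dspp+/- and 0.01 in Dspp-/-. Ifnar1 and Ifnar2, the chains of the type I receptor, had 11.6 and 6.71 FPKM in WT, 9.56 and 7.77 in Dspp+/-, and 11.4 and 7.76 in Dspp-/-. Ifngr1, a chain of the interferon-gamma receptor and the most abundant subunit, had 33.8, 37.8 and 34.6 FPKM in the same order. The exception was Ifnlr1, the specific chain of the type III receptor, which stood at 0.532 FPKM in WT against 1.19 in Dspp+/- and 2.08 in Dspp-/-, a fold of 3.92 in Dspp-/- (2.82 to 5.55). It passed the filter at 1 FPKM only through its mutant values, and so had to differ.

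Among the kinases and the subunits of ISGF3, none of 6 genes passed 2-fold, with medians of 0.16 in Dspp+/- and 0.28 in Dspp-/-. Of all genes compared, 4.88% and 4.05% were 2-fold higher and 2.86% and 1.37% lower, in the same order. Irf9 had 3.08, 4.91 and 4.21 FPKM, a fold of 1.59 in Dspp+/- (1.39 to 1.83) and 1.36 in Dspp-/- (1.19 to 1.57). Stat2, another ISGF3 subunit, had 3.63, 3.76 and 3.06 FPKM, and was named after its values were seen. Jak1 was the most abundant at 21.9, 26.3 and 28.3 FPKM.

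Among 7 other interferon regulatory factors, 6 passed the filter, and Irf4 and Irf8 were at least 2-fold higher in Dspp+/-. Of all genes compared, 4.88% were at least 2-fold higher in Dspp+/- and 4.05% in Dspp-/-. Irf4 and Irf8 are lineage factors of lymphoid and myeloid cells. Irf8 had 2.20 FPKM in WT against 6.23 in Dspp+/- and 3.90 in Dspp-/-. Irf4 had 1.20, 4.08 and 3.85 FPKM and was the only factor past 2-fold in Dspp-/-. Irf3, the constitutive factor upstream of interferon production and the most abundant of the list, had 7.36, 7.67 and 5.22 FPKM. The nucleic acid sensors and adaptors had a median of 0.28 in both mutant libraries over 15 of 16 genes. In Dspp+/- 2 of them, Aim2 and Tlr8, were past 2-fold and in Dspp-/- none, and Aim2 passed the filter through its mutant values. Tlr8, an endosomal RNA receptor, had 1.03, 3.08 and 2.74 FPKM, and Mavs, the adaptor of the cytosolic RNA sensors, had 12.2, 20.8 and 19.4 FPKM.

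The enzymes that attach ISG15 had the highest medians of the pathway lists, 0.70 in Dspp+/- and 0.54 in Dspp-/-, over only 3 of 4 genes. Ube2l6, the conjugating enzyme, had 7.08 FPKM in WT against 24.1 in Dspp+/- and 22.0 in Dspp-/-, a fold of 3.40 (2.99 to 3.89) and 3.10 (2.72 to 3.55). Uba7, the activating enzyme, had 1.83, 3.61 and 3.10 FPKM. Trim25, a ligase of the pathway, had 9.50, 13.3 and 11.6 FPKM. All 3 genes had intervals above 1 in both mutant libraries, as Isg15 and Usp18 did. So did 39.4% of all genes compared in Dspp+/- and 34.1% in Dspp-/-, each library taken alone.

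Of the 10 IFIT and OAS relatives of the members, 4 reached the filter, and Oas3 was past 2-fold in both mutant libraries. The share of all genes compared was 4.88% in Dspp+/- and 4.05% in Dspp-/-. Oas3, a large oligoadenylate synthetase, had 19 fragments in WT against 283 in Dspp+/- and 207 in Dspp-/-, or 0.133, 1.70 and 1.32 FPKM. Its fold was 12.8 in Dspp+/- (8.03 to 21.5) and 9.91 in Dspp-/- (6.19 to 16.8). Like Ifnlr1, Oas3 passed the filter only through its mutant values, as did Oas2, so this call had to show a difference. Oas2 had 0.622, 1.51 and 1.25 FPKM, while Oas1b stayed at 1.07, 1.04 and 1.08 FPKM. Ifit3b, which shares sequence with Ifit3, had 1.31, 1.86 and 1.62 FPKM, and its folds of 1.42 and 1.24 lay near the 1.47 and 1.25 of Ifit3. An ISRE core match was present in 7 of the 8 relatives with a promoter window, beside 3.99% of all genes with a window.

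A broader list of 41 type I interferon-stimulated genes had medians close to those of the members, 0.38 in Dspp+/- and 0.37 in Dspp-/- over 34 genes that passed the filter. At least 2-fold higher were 4 genes in Dspp+/- (Ms4a4c, Trim30a, Isg20 and Ifi203) and 2 in Dspp-/- (Ms4a4c and Trim30a). Of all genes compared, 4.88% were higher in Dspp+/- and 4.05% in Dspp-/-. With 2 of 34 genes, the share in Dspp-/- lay near that of all genes. No gene of the list was at least 2-fold lower, beside 2.86% of all genes in Dspp+/- and 1.37% in Dspp-/-. Trim30a had 1.67 FPKM in WT against 5.25 in Dspp+/- and 5.38 in Dspp-/-. Ms4a4c, which also stood on the monocyte marker list, had 0.621, 3.14 and 2.28 FPKM and passed the filter through its mutant values. The list was not uniform. Its most abundant gene, Ifitm2, which encodes a membrane protein against viral entry, had 76.9 FPKM in WT against 65.9 in Dspp+/- and 58.9 in Dspp-/-. The counting interval lay above 1 for 25 of the 34 genes and below 1 for 6 in Dspp+/-, and for 21 and 6 in Dspp-/-. Over all genes compared it lay above 1 for 39.4% and below 1 for 28.4% in Dspp+/-, and for 34.1% and 33.6% in Dspp-/-.

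Genes linked to interferon-gamma had medians of 0.50 in Dspp+/- and 0.30 in Dspp-/- over 16 of 23 genes, with none past 2-fold on the scale of FPKM + 1. Over all genes compared, 4.88% and 4.05% were 2-fold higher and 2.86% and 1.37% lower, in the same order. Cd274, the gene of PD-L1, had 1.13, 2.69 and 2.66 FPKM. Psmb8, an immunoproteasome subunit, had 2.43 FPKM in WT and 4.31 in Dspp+/- but 2.1 in Dspp-/-. The genes that restrain the pathway went several ways, with medians of 0.15 in Dspp+/- and -0.21 in Dspp-/- over 7 genes. Socs1, which blocks JAK kinases, was at least 2-fold lower in Dspp+/-, with 3.72 FPKM in WT against 1.3 in Dspp+/- and 2.16 in Dspp-/-. Samhd1, which breaks down nucleotides, had 7.27, 13.8 and 11.3 FPKM.

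**Figure D3:**
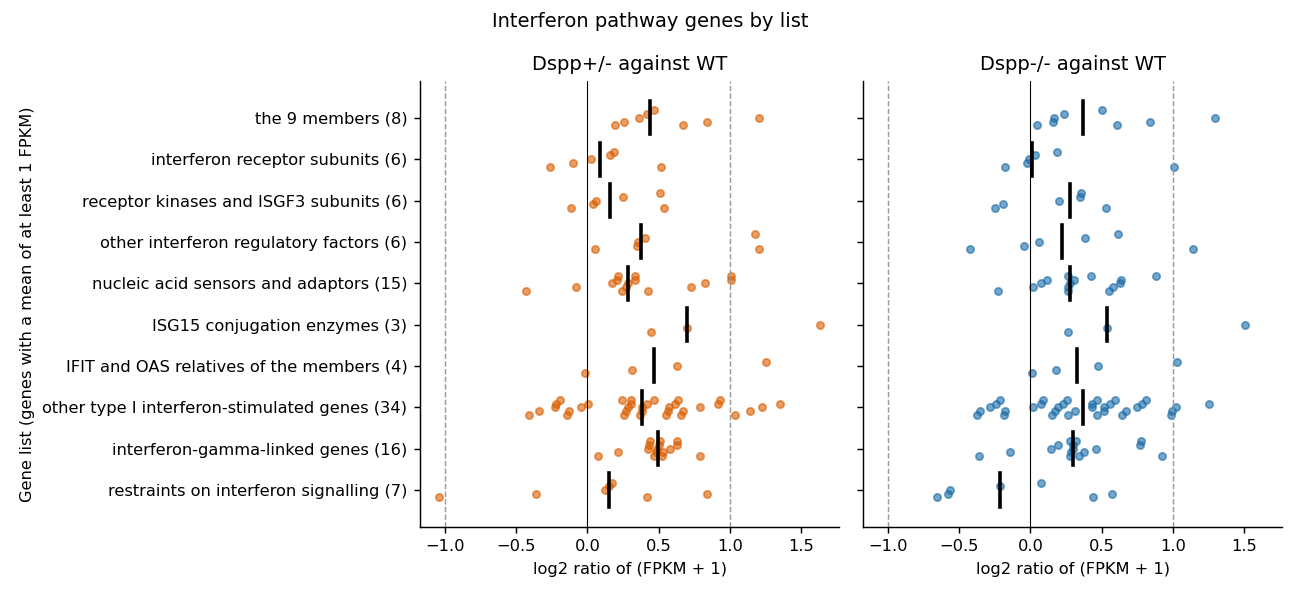
Log2 ratio of FPKM + 1 against the WT library for interferon pathway genes in Dspp+/- and Dspp-/-, 1 point per gene with a mean of at least 1 FPKM (number in brackets), grouped by list. Thick bars are list medians and dashed lines mark 2-fold. The 8 members shown have medians of 0.44 and 0.37, near those of the broader list of type I interferon-stimulated genes (0.38 and 0.37).

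The condyle is a mixed tissue, and in bulk RNA fewer cells of a type and less RNA per cell cannot be told apart. Several lists of cell type markers differed more between the libraries than the members did. All 12 neutrophil markers were at least 2-fold higher in both mutant libraries, and their summed level was 649 FPKM in WT against 2843 in Dspp+/- and 3865 in Dspp-/-. The 9 erythroid markers were all past 2-fold as well, with sums of 904, 3761 and 3640 FPKM. Of 8 B cell markers, 7 were past 2-fold in Dspp+/- and 6 in Dspp-/-, with sums of 22.0, 74.2 and 55.0 FPKM. Of 8 monocyte markers 4 were past 2-fold in each mutant library, with sums of 591, 782 and 700 FPKM. Fn1, also a matrix gene, held most of these sums and was lower in the mutant libraries, with 528, 450 and 400 FPKM. Without Fn1 the sum was 63.0 FPKM in WT against 333 in Dspp+/- and 301 in Dspp-/-. Most of that was Chil3, with 41.4, 259 and 245 FPKM. The intervals of Fcgr1 and Cx3cr1 include 1 in both mutant libraries. Chil3, Fcgr1 and Cx3cr1 were named after their values were seen. Of all genes compared, 4.88% were at least 2-fold higher in Dspp+/- and 4.05% in Dspp-/-. In the opposite direction, 8 osteoblast markers summed to 13418 FPKM in WT against 3565 in Dspp+/- and 7149 in Dspp-/-. The sum of 8 osteoclast markers was 2258, 804 and 1317 FPKM, and that of 8 chondrocyte markers 1158, 142 and 483 FPKM, with Matn1 at 0 in Dspp+/- and at 2 and 3 fragments in WT and Dspp-/-. The part of these shifts in the values of the members was not tested.

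Other immune lists moved less or rested on few genes. The 8 macrophage markers had no gene past 2-fold, with sums of 189, 162 and 162 FPKM, although their median log2 ratio in Dspp+/- was 0.11. The endothelial sums were 131, 147 and 143 FPKM. Plasma cell markers, of interest because those cells make Bst2, had sums of 82.5, 81.3 and 82.7 FPKM, but the markers went different ways. Jchain, the joining chain of secreted antibodies, had 15.4, 28.4 and 26.0 FPKM, Sdc1 had 23.6, 7.79 and 12.5 FPKM, Prdm1 had 3.47, 2.18 and 2.51 FPKM, and Xbp1, the most abundant, had 39.7, 42.2 and 41.0 FPKM. The 10 markers of plasmacytoid dendritic cells also split, with 3 of the 7 that passed the filter below WT in each mutant library. The defining Siglech had 0.672 FPKM in WT against 1.44 in Dspp+/- and 1.89 in Dspp-/-, and Cd209d was at 0 in WT, with 6 fragments in Dspp+/- and 1 in Dspp-/-. Cox6a2, which skeletal muscle also expresses, made up most of that list, and without it the sums were 28.6, 52.8 and 41.6 FPKM. Spib, with 5.15, 18.6 and 13.1 FPKM, and Ly6d, with 5.71, 20.1 and 14.3 FPKM, are also expressed by B cells. Without these as well, the 7 remaining markers summed to 17.7 FPKM in WT against 14.1 in Dspp+/- and 14.3 in Dspp-/-. Tcf4, with 8.86, 7.52 and 9.01 FPKM, was the largest of them in each library. The lower sums came from Pacsin1 and Smim5, joined by Tcf4 in Dspp+/-. Siglech, Ccr9, Cd209d and Klk1 were higher in both mutant libraries, though the intervals of Klk1, and of Cd209d in Dspp-/-, include 1. Ccr9 had 3, 36 and 40 fragments, with intervals of 3.25 to 52.2 in Dspp+/- and 3.86 to 61.3 in Dspp-/-. Pacsin1 had 3.27, 1.22 and 1.05 FPKM, and Smim5 had 4.76, 3.11 and 1.85 FPKM, both at least 2-fold lower in Dspp-/-. Markers of these 2 lists outside the most abundant and those at 0 were named after their values were seen. The T and NK cell list had sums of 5.48, 20.7 and 11.6 FPKM, of which Nkg7 held most of the excess, and without it they were 5.05, 7.58 and 6.18 FPKM.

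**Figure D4:**
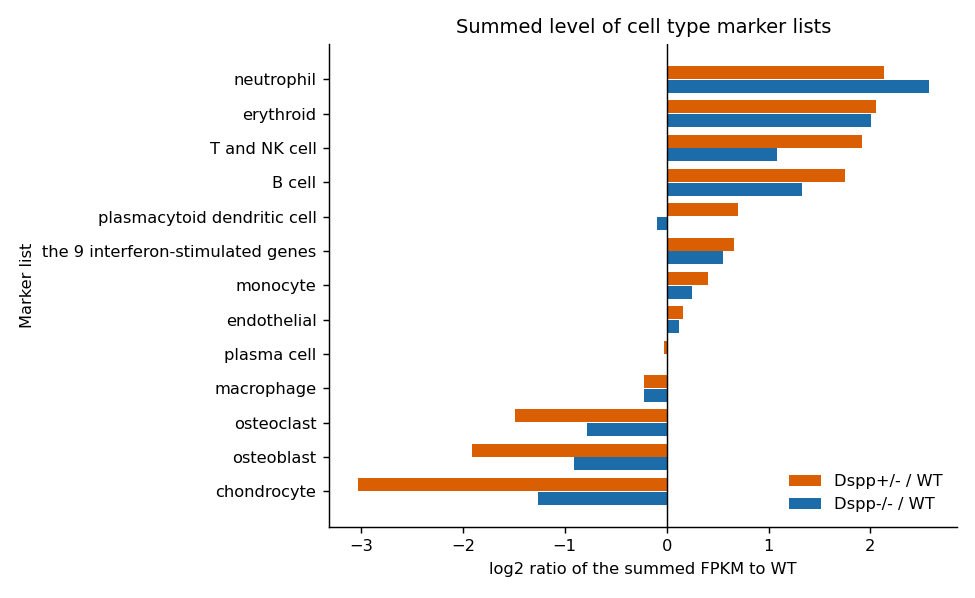
Log2 ratio of the summed FPKM of each cell type marker list, and of the 9 interferon-stimulated genes, in Dspp+/- and Dspp-/- against the WT library. Lists are summed in full, with Fn1 among the monocyte markers and Cox6a2 among those of plasmacytoid dendritic cells. The members (49.4 and 45.8 FPKM against 31.2 in WT) lie between the neutrophil list (2843 and 3865 against 649) and the chondrocyte list (142 and 483 against 1158).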

How the data were processed

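The authors deposited 1 value per gene and genotype with no unit named, and these deposited values were read as FPKM, fragments scaled by exon length and library size. The submitters' processing notes list FastQC 0.11.5, HISAT2 2.1.0, StringTie 1.3.3b and DESeq 1.28.0 without their roles, and the build hg38, a human build. The gene positions are those of the deposited table, whose mouse build was not given in the sources used here. Only 589 of its 26970 genes have the start and end of GENCODE M21 (GRCm38). The gene positions therefore cannot be set against the promoter positions, which are on GRCm38.p6. For example, the deposited Ifit1 starts at 34618271, while the 250 bases upstream of its start site end at 34640888 on GRCm38.p6. Labels mention triplicates, but each genotype has 1 value, taken as 1 pooled library.

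Multiplying the FPKM by the gene's joined exons (GENCODE M21) gave whole multiples of 1 constant per library, within 0.05 fragments, for 98.6% (WT), 98.7% (Dspp+/-) and 98.6% (Dspp-/-) of values below 100 fragments. This gave the depths and fragments. Recovery was tested on simulated data. Folds have 95% Clopper-Pearson intervals, levels exact Poisson intervals, and the floor is 3 fragments. FPKM does not adjust for composition. Genes averaging 1 FPKM or more were compared as log2 ratios of FPKM + 1 and called at 2-fold. A set of 11 alternatives was planned and 3 were added after seeing the data. Members and lists were chosen with earlier results of these data known. All members were named, with up to 4 genes per pathway list of largest absolute log2 ratio in Dspp+/-, the most abundant gene of any list, markers at 0 in a library, and IFIT and OAS relatives. Ifi44l, Mnda and Trex1 of the lists were not analysed here. Promoters come from RefSeq (GRCm38.p6). Computation used scipy 1.17.1, numpy 2.4.6, matplotlib 3.10.9 and pandas 2.3.3 under Python 3.11.15.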

Additional observations from a re-analysis of the deposited data

Results flagged for a closer look

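Jak2, a kinase of the interferon-gamma receptor, lay on opposite sides of WT in the mutant libraries, with a log2 ratio of -0.12 in Dspp+/- and 0.20 in Dspp-/-, and both counting intervals of its fold exclude 1 (0.859 to 0.982 and 1.09 to 1.24). The difference was not tested, since each genotype has 1 library.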

How the results depend on the processing

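No paired analysis was possible because each genotype has 1 library. The median log2 ratio of the members stayed above 0 in both mutant libraries under every alternative run. A filter at a mean of 5 FPKM, which leaves only Rsad2 and Bst2, gave 0.78 in Dspp+/- and 0.73 in Dspp-/-, and no pseudocount with no filter gave 0.81 and 0.70. The number of members at least 2-fold higher, 1 in each mutant library, became 2 with a pseudocount of 0.1 FPKM, 0 with 5 FPKM, 3 at 1.5-fold, 0 at 4-fold, 3 with no pseudocount and no filter, and 0 without Rsad2, each in both mutant libraries. The counts of 3 were made of Rsad2 and Ifit1 with Isg15 or Usp18 in Dspp+/- and with Oasl2 in Dspp-/-. The shares of all genes called higher, in Dspp+/- and then Dspp-/-, were 7.45% and 6.42% with 0.1 FPKM, and 1.42% and 1.04% with 5 FPKM. They were 11.5% and 8.84% at 1.5-fold, 0.952% and 0.791% at 4-fold, and 13.4% and 12.4% with no pseudocount and no filter. Leaving out Rsad2 keeps them at 4.88% and 4.05%. A scaling chosen after seeing the data equalized the summed FPKM outside hemoglobin, immunoglobulin and skeletal muscle genes, with mitochondrial genes kept. It moved the median of all genes in Dspp+/- from 0.058 to -0.099 and in Dspp-/- from 0.0070 to -0.13. The members' median relative to all genes was then 0.41 and 0.37, beside 0.38 and 0.36 as deposited. Of all changed genes, 44.5% were then higher in Dspp+/- and 56.4% in Dspp-/-, beside 63.0% and 74.6%. Scaling on the summed FPKM without mitochondrial genes instead gave medians over all genes of 0.081 in Dspp+/- and 0.073 in Dspp-/-. Of the single members' ratios, 201 moved from the reported log2 ratio by less than the half-width of the counting interval of the fold and 15 by more. Most of the 15 came from another pseudocount or none. Against WT, only Irf7 in Dspp-/- changed sign. Without Rsad2 the median in Dspp-/- was 0.24. Over the 13026 genes compared, 636 were higher and 373 lower in Dspp+/- and 527 and 179 in Dspp-/-. The 0.1 FPKM pseudocount gave 971 and 605, and 836 and 363, and 5 FPKM gave 185 and 156, and 136 and 45. A mean of 5 FPKM, which left 7133 genes, gave 281 and 272, and 228 and 110. The 1.5-fold threshold gave 1501 and 1166, and 1152 and 1070, and 4-fold gave 124 and 24, and 103 and 6. No pseudocount with no filter gave 2786 and 2169 of 20771 genes, and 2536 and 1787 of 20501. Depth limits Isg15, Usp18 and Ifit1 most, with 30, 30 and 44 fragments in WT.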
